A study of Homo sapiens with 6 samples.

Results

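CRMA and LINC01291 are noncoding genes with higher exon counts in A375 melanoma cells expressing PRL3 than in cells carrying the empty vector (EV). They are 2 of the 58243 gene identifiers counted in these libraries, and both are annotated as long noncoding RNA (lncRNA) genes in GENCODE release 44. They were chosen from the readout itself, as the lncRNA genes among the 5 higher genes with the smallest p in the comparison of PRL3 with EV whose libraries did not overlap. The values of CRMA and LINC01291 in that comparison are therefore given as a description, without a test. Their neighbors, their sequence and their place in the genome played no part in the choice.

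The study labeled newly made RNA in A375, a human melanoma cell line, with the uridine analog 4-thiouridine (4sU) at 500 µM for 20 min, and purified the labeled RNA on streptavidin after coupling it to biotin. Ribosomal RNA was then removed and strand-specific libraries were sequenced. The EV group (libraries B1, B2 and B3) held A375 cells stably transfected with an empty vector, and the PRL3 group (libraries B9, B10 and B11) held A375 cells stably transfected with a plasmid expressing HA-tagged human PRL3. Cells of both groups were kept in hygromycin B and received the same 4sU pulse, and the labels do not say whether a transfected line was 1 clone or a pool. PRL3 is a phosphatase of the protein tyrosine phosphatase 4A family, and its gene is PTP4A3.

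A lncRNA gene is transcribed, usually by RNA polymerase II, into a long RNA without a protein product of its own, and the RNA is often spliced and kept at a low level. Many lncRNA genes overlap or adjoin another gene, on the same or on the opposite strand, so reads on the expected strand and the levels of neighboring genes belong to the description of a locus. CRMA overlaps the 5′ end of MIR1-1HG, the host gene of the microRNAs miR-1 and miR-133a, which are abundant in heart and skeletal muscle. LINC01291 lies downstream of HK2, which encodes the glycolytic enzyme hexokinase 2.

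CRMA (ENSG00000174403) occupies chr20:62544165-62551526 on the minus strand of GRCh38, a span of 7362 bases with 3788 exonic bases in 8 merged exon blocks. RefSeq lists it under the older names C20orf166-AS1 and MIR1-1HG-AS1, among others, over a slightly longer span, chr20:62543070-62551561. LINC01291 (ENSG00000204792) occupies chr2:74918148-74938418 on the plus strand, a span of 20271 bases with 4176 exonic bases in 5 merged exon blocks. The first splice junction of each canonical GENCODE transcript is shown because the deposited counts come from exons. These are the bases that a read spliced across that junction would carry. Other transcripts of a gene can have other junctions, and the counts also cover exons outside the canonical transcript. First junctions are also given for MIR1-1HG and LINC01293, neighbors whose counts were higher in PRL3 too. The last 30 bases of exon 1 are in lower case, and the first 30 bases of exon 2 are in capitals.
CRMA-206: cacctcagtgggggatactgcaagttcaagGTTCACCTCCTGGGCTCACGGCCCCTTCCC
MIR1-1HG-202: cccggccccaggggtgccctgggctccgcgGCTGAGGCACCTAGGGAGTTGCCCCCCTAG
LINC01291-203: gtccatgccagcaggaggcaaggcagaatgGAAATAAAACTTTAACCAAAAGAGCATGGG
LINC01293-201: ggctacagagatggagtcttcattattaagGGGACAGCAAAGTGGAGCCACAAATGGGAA
The CRMA transcript has 5 exons and 3337 bases, with a first intron of 2223 bases. The LINC01291 transcript has 3 exons and 565 bases, and its first intron is 12958 bases long.

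The promoter of CRMA, as the 300 bases around the start of the RefSeq model (GRCh38.p14, chr20:62551512-62551811, minus strand), is shown beside that of MIR1-1HG (chr20:62550203-62550502, plus strand), since RNA from both strands was higher in PRL3 cells. Each is read 5′ to 3′ along its own strand, and capitals mark the bases matching the E-box CANNTG. The RefSeq promoter table used here was matched by symbol for CRMA and MIR1-1HG, and LINC01291 had no entry.
CRMA: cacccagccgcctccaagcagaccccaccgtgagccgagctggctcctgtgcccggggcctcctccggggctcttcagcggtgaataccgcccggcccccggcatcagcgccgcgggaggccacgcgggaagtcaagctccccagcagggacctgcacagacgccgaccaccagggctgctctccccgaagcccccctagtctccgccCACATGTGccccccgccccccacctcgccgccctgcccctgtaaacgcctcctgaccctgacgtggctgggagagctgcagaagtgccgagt
MIR1-1HG: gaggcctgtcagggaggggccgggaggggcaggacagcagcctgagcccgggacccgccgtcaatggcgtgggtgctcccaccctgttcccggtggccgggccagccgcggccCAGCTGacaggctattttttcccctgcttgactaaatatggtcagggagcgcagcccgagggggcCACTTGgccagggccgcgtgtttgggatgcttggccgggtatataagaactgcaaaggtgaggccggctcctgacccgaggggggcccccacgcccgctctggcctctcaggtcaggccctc
The GC content was 72% in the CRMA promoter and 68.7% in that of MIR1-1HG, at percentiles 84.9 and 77.2 of 35116 promoters. The ratio of observed to expected CpG was 0.65 and 0.51, at percentiles 54.3 and 46.6, so neither stood far from the middle of all promoters by that measure. Both promoters held 2 matches to CANNTG, as did 68.7% of all promoters at least once, and the pair in the CRMA promoter overlapped each other. The GC box GGGCGG was matched 4 times in the CRMA promoter and 0 times in that of MIR1-1HG (45% of all promoters). TGACNNNGC, the core of an antioxidant response element, was matched 1 time in CRMA and 0 times in MIR1-1HG (13.3% of all promoters). The M-box TCATGTG had 0 matches in both windows, and 2.92% of all promoters held it. The same count of 0 was found in both for the palindromic E-box CACGTG (held by 7.26% of all promoters), for the AP-1 site TGANTCA (7.71%), for the TATA motif TATAAA (11.5%) and for the ETS site CCGGAAG (10.3%). All motifs were searched on both strands as exact matches to the letters given, with N for any base, so variants were not counted. The MIR1-1HG window holds tatataag, a run close to TATAAA that this search does not match.

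The microRNA genes inside MIR1-1HG carry the sequences for which that locus is known, and the mature 3p forms from RefSeq are shown with the seed (bases 2 to 8) in capitals.
hsa-miR-1-3p: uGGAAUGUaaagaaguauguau
hsa-miR-133a-3p: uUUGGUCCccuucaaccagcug
They lie at chr20:62554351-62554372 and chr20:62564970-62564991, upstream of CRMA on the opposite strand, and have different seeds. The hairpin gene MIR1-1 had 0 counts in all 6 libraries, and MIR133A2 had 0, 0 and 0 counts in EV and 0, 3 and 0 in PRL3 (libraries B9, B10 and B11). The libraries were prepared from long RNA, so mature microRNAs were not measured.

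**Figure D1:**
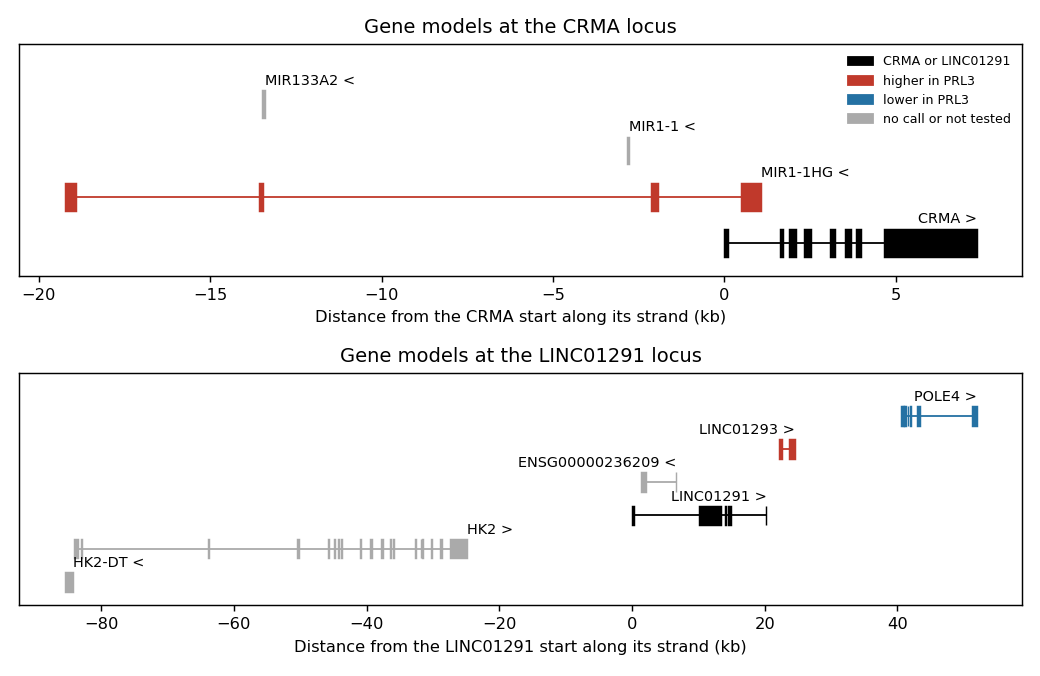
Exon models (boxes) and introns (lines) at the CRMA locus (upper) and the LINC01291 locus (lower), against the distance in kb from the start of each gene along its own strand, with arrowheads for direction and colors for the call in PRL3 against EV. MIR1-1HG starts inside the first intron of CRMA and runs away on the opposite strand, and LINC01293 follows LINC01291 on the same strand by 1.84 kb.

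Between 36532207 and 57952035 reads were counted on genes per library, and 23884 genes passed the low-count filter. Reads that met no annotated exon on the counted strand made up 28.7% to 41.1% of the uniquely aligned reads in EV and 62.8% to 69.1% in PRL3, and the part of this shift in the values of CRMA and LINC01291 was not tested. The counts here are of exons. For nascent transcripts the paper turned to intronic reads, to avoid possible effects of splicing during transcription or of carried-over mRNA. The part of such carry-over in the counts here was not tested. The labels do not say that libraries came from separate cultures, so p-values measure the spread between these libraries, which may be technical. PTP4A3, the transfected gene, had 217 ± 59.4 normalized counts in EV and 24387 ± 3796 in PRL3 (SD, n = 3 each). The melanocyte transcription factor gene SOX10 had 15479 to 23575 raw counts in EV and 9882 to 18803 in PRL3, whereas the pigmentation genes TYR and MLANA had at most 2 counts in any library. Normalized counts are counts scaled by TMM (trimmed mean of M values) library factors to a common library size.

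CRMA was at the edge of detection in EV and clearly counted in PRL3. The raw counts were 0, 1 and 1 in EV libraries B1, B2 and B3, and 242, 313 and 198 in PRL3 libraries B9, B10 and B11. Every PRL3 library was far above every EV library, and the 3 PRL3 libraries lay close together once depth was taken into account. Scaled by TMM, CRMA had 0.704 ± 0.627 normalized counts in EV and 231 ± 18.5 in PRL3 (SD, n = 3 each), a coefficient of variation of 7.99% in PRL3. From the summed counts, 753 in PRL3 against 2 in EV, the ratio of rates was 319 (exact 95% interval 88 to 2640, counting error only). The fitted log2 fold change was 8.09 (standard error 0.55). With so few EV counts the size of the fold is loosely set, more so than this standard error shows. In libraries of whole cultures, more cells transcribing a gene and more RNA per cell cannot be told apart.

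LINC01291 was already transcribed in EV cells. Its raw counts were 600, 506 and 830 in EV libraries B1, B2 and B3, and 3250, 4345 and 3185 in PRL3 libraries B9, B10 and B11. The lowest PRL3 library exceeded the highest EV library. In normalized counts LINC01291 went from 698 ± 78.3 in EV to 3331 ± 91.4 in PRL3 (SD, n = 3 each), which is a fold of 4.77. The coefficient of variation was 11.2% in EV and 2.74% in PRL3. The log2 fold change was 2.25 (standard error 0.16), and the ratio of summed counts was 4.72 (exact 95% interval 4.49 to 4.95, counting error only). The 2 genes thus differ in kind: CRMA was near 0 in EV, and LINC01291 had at least 506 counts in every library there.

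**Figure D2:**
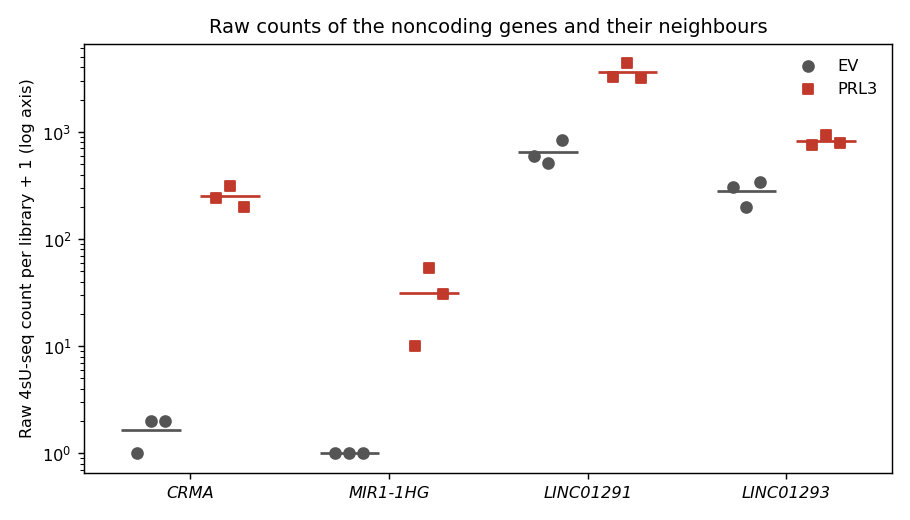
Raw counts plus 1 on a log axis for CRMA, MIR1-1HG, LINC01291 and LINC01293, with 1 point per library (EV and PRL3, 3 each) and a horizontal line at the mean of the group. CRMA and MIR1-1HG sit at 0 or 1 count in EV, and for LINC01291 and LINC01293 the groups are separated at levels well above 0.

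Both genes passed the call rule that chose them (higher, adjusted p under 0.05, libraries not overlapping), as 20.0% of the 23884 tested genes were called higher and 29.7% had all PRL3 libraries above all EV libraries. Lower calls made up 22.7%, or 5426 genes against 4783 higher, and this split turned to 3078 against 9514 under library size alone and to 8473 against 1952 under all uniquely aligned reads. Among the 4771 tested lncRNA genes these shares were 27.9% and 43.2%. Since CRMA and LINC01291 were taken for passing, nothing is read from their own calls. By p, CRMA was 4th and LINC01291 5th of the 4704 higher genes without overlap, after PTP4A3, EPB41L3 (a membrane skeleton protein) and SLIT2 (a secreted guidance ligand). The gene just outside these 5 was S1PR1, a receptor for sphingosine 1-phosphate, whose log2 fold change, 2.78 with a standard error of 0.2, is larger than that of LINC01291 and less precise. The next lncRNA gene, in 8th place, was LINC02915 at 3.09 (standard error 0.23). The rank of LINC01291 thus came with a small standard error, not with an extreme fold.

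Ordered by fitted log2 fold change, CRMA stood 5th of 23884 genes and 3rd of 4771 lncRNA genes. LINC01291 stood 936th and 284th. The fitted value of a gene at or near 0 in EV depends on the prior count, so the place of CRMA among such genes is not exact. The median log2 fold change was 0.11 over all tested genes (quartiles -0.6 and 0.78) and 0.71 over lncRNA genes (quartiles 0.13 and 1.28). The 95th percentile among lncRNA genes was 2.38, above the 2.25 of LINC01291. Of the lncRNA genes, 1330 were higher and 104 lower (2.18%) by edgeR's quasi-likelihood test at an adjusted p of 0.05, compared with 2191 higher (15.2%) and 4571 lower (31.6%) of 14443 protein-coding genes. With all uniquely aligned reads as the scaling, 629 lncRNA genes were higher and 264 lower. Higher exon counts were thus common among lncRNA genes in these libraries. CRMA and LINC01291 belong to a class that lay above the median of all genes. The part of carried-over mRNA in this difference between lncRNA and protein-coding genes was not tested.

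**Figure D3:**
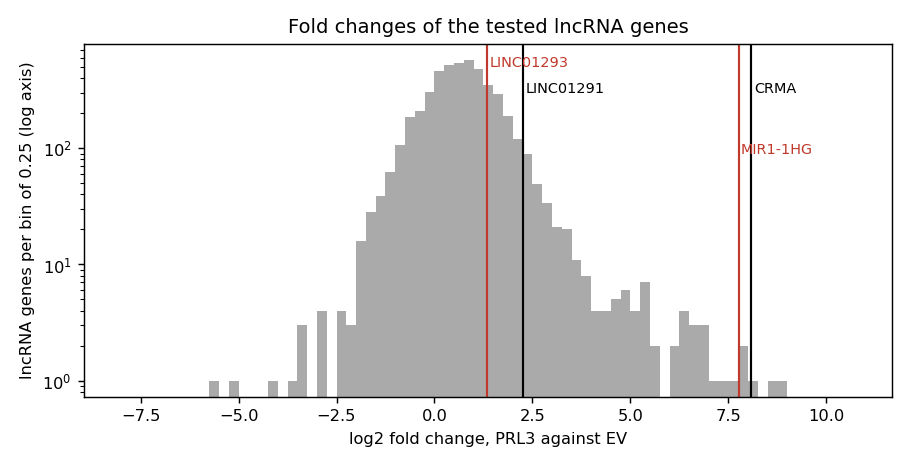
Number of tested lncRNA genes (log axis) by log2 fold change of PRL3 against EV, with lines at CRMA, LINC01291 and their neighbors MIR1-1HG and LINC01293. The median is 0.71, LINC01291 at 2.25 lies below the 95th percentile of 2.38, and CRMA at 8.09 lies near the upper end.

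The pattern of CRMA, at or near 0 in EV and present in PRL3, was rare. Of 7616 lncRNA genes with at most 3 raw counts in every EV library, 58 (0.762%) had at least 10 in every PRL3 library. With the groups exchanged, 3 of 7196 (0.0417%) did so. Over all genes in the files the shares were 178 of 28543 (0.624%) and 39 of 27806 (0.14%), so the lncRNA share in the direction of CRMA was close to that of all genes. CRMA was the 1 gene of either class, lncRNA or all genes, to reach at least 100 counts in every PRL3 library. Next came PKD1-AS1, antisense to the polycystin gene PKD1, with 3, 0 and 0 counts in EV and 95, 115 and 75 in PRL3. The lowest PRL3 library of the others listed by this order held 65 counts for a Y RNA gene (ENSG00000200888) and for the zinc finger gene ZNF728, 50 for ENSG00000274354, 49 for MYCBP2-AS2, 47 for ENSG00000259560 and 46 for SCARNA14. In its lowest PRL3 library, CRMA had 198.

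**Figure D4:**
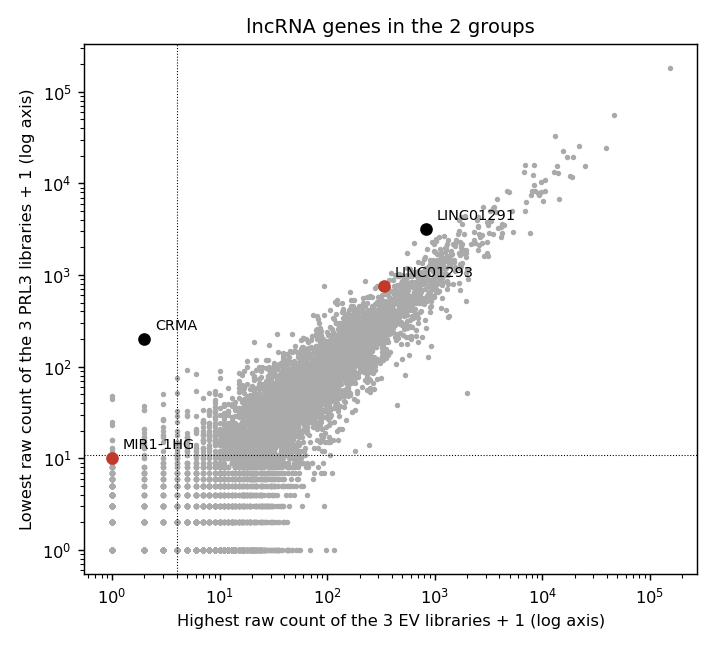
Lowest raw count among the 3 PRL3 libraries against the highest among the 3 EV libraries for lncRNA genes, both plus 1 on log axes, with dotted lines at the limits of 3 and 10 counts. CRMA, at 198 in its lowest PRL3 library, is the highest point left of the vertical line, and MIR1-1HG, with a lowest count of 9, lies just under the horizontal one.

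Across the 6 libraries, the gene with the pattern most like that of CRMA was PTP4A3. The measure was the root mean square difference of mean-centered log2 normalized counts with 0.5 added, so a smaller value is a closer match, and for PTP4A3 it was 0.63. After it came ENSG00000259560 (0.73), MIR3689F (0.78), ENSG00000240328 (0.81) and ENSG00000255723 (0.82), each with 0 counts in every EV library. The raw counts of CRMA were 1.12%, 0.81% and 0.962% of those of PTP4A3 in PRL3 libraries B9, B10 and B11. The genes most like LINC01291 were ENSG00000261560 (0.11) and SLIT2 (0.11), followed by ENSG00000265800 (0.13), LINC02476 (0.15) and MCTP2 (0.15). These 5 had log2 fold changes between 2.09 and 2.44, close to the 2.25 of LINC01291. With 3 libraries a group, such a likeness is mostly a likeness of fold change. It uses the same values by which CRMA and LINC01291 were chosen, so it is a description. Since CRMA was near 0 in EV, the order of its matches also depends on the 0.5 added.

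Neither gene is near PTP4A3, which lies on chromosome 8 (chr8:141391995-141432454, plus strand). The longest exact run of bases shared with PTP4A3 transcripts was 14 for CRMA and 13 for LINC01291. When their transcripts were divided into windows of 150 bases and aligned to the genome at 95% identity or more, 221 of 221 CRMA windows and 86 of 86 LINC01291 windows were placed at their own locus and 0 elsewhere. No other genomic copy of either gene was found at that identity.

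At the CRMA locus the gene on the opposite strand was also near 0 in EV and counted in PRL3. MIR1-1HG (ENSG00000174407, chr20:62550447-62570767, plus strand) shares 1080 bases of its span with CRMA and 0 bases of exon. Its raw counts were 0, 0 and 0 in EV and 9, 53 and 30 in PRL3 libraries B9, B10 and B11. The PRL3 libraries were all above EV, with a wider spread than for CRMA. Against a floor of 3 counts over the EV group, MIR1-1HG was at least 26-fold higher in PRL3. It passed the low-count filter only through its PRL3 libraries, so it could be tested only because it differed, and its call by edgeR is not used as support. Nor is an exact permutation test used as support. With 0 counts in EV the filter needed counts in every PRL3 library, which fixed its p at 0.1 (two-sided), the smallest that 3 libraries against 3 allow. CRMA had 26.9, 5.91 and 6.6 times the raw counts of MIR1-1HG in B9, B10 and B11, so the ratio was highest where MIR1-1HG was lowest. Per kb of exon, normalized counts in PRL3 were 61.1 ± 4.88 for CRMA and 21.9 ± 12.8 for MIR1-1HG (SD, n = 3), which do not overlap.

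Few other genes of the CRMA neighborhood were higher. Of 88 genes within 1 Mb on either side, 43 were tested. By edgeR's quasi-likelihood test 2 were higher in PRL3 (4.65%), 18 were lower (41.9%) and 23 passed in neither direction, against 20.0% higher and 22.7% lower over all tested genes. The genes called higher were the lncRNA genes MIR1-1HG, with the limit given above, and ENSG00000273759, which changed by 1.14 on the log2 scale (SE 0.23, adjusted p = 0.00129 by edgeR). ENSG00000273759 lies inside the span of DIDO1 on the same strand, and unspliced DIDO1 RNA was not told apart from it. The lower genes included 17 of the 27 protein-coding genes tested, where 31.6% of all tested protein-coding genes were lower. The median log2 fold change in the window was -0.78. Without EV library B3, 7 genes of the window were higher. Scaling by library size alone gave 9 higher and 12 lower.

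Downstream of CRMA, the nearest tested gene was CABLES2 at 137 kb, which was lower in PRL3 (-1.38 on the log2 scale, standard error 0.19, edgeR adjusted p = 0.000101). RPS21, a protein of the small ribosomal subunit, fell at 156 kb (-2.14, standard error 0.25, edgeR adjusted p = 2.63e-05), and so did LAMA5, a laminin chain, at 177 kb (-0.9, standard error 0.18, edgeR adjusted p = 0.00157). Of the nearest tested lncRNA genes, ENSG00000275437 lies inside the span of CABLES2 on the same strand and ENSG00000273619 lies between RPS21 and LAMA5. Their log2 fold changes were 0.62 (edgeR adjusted p = 0.0672) and 0.3 (edgeR adjusted p = 0.186). Unspliced CABLES2 RNA was not told apart from ENSG00000275437. Farther down on this side, the proteasome ubiquitin receptor gene ADRM1 was lower at 235 kb (-1.46, edgeR adjusted p = 5.63e-05). Beyond it, PSMA7 at 401 kb (-1.91, edgeR adjusted p = 1.79e-05) and LSM14B at 409 kb (-0.44, edgeR adjusted p = 0.0332) were lower too. The coding genes OSBPL2 (-0.15), MTG2 (-0.35), SS18L1 (0.36) and TAF4 (0.21) passed in neither direction by the same test (adjusted p = 0.483, 0.0924, 0.118 and 0.406).

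Upstream of CRMA, LINC02970 at 45.2 kb had a log2 fold change of -1.5 with a standard error of 0.92 (edgeR adjusted p = 0.21). ENSG00000167046 and SLCO4A1-AS2, at 89.2 and 97.4 kb, were near 0 (-0.03 and 0.06, edgeR adjusted p = 0.951 and 0.953). SLCO4A1, an organic anion transporter at 91 kb, fell (-0.78, standard error 0.18, edgeR adjusted p = 0.00371), as did SLCO4A1-AS1 at 111 kb (-1.51, standard error 0.3, edgeR adjusted p = 0.00141). Farther out, the neurotensin receptor gene NTSR1 (-2.34), the collagen gene COL9A3 (-1.9), OGFR (-1.21), MRGBP (-1.03), GID8 (-0.54) and TCFL5 (-0.46) were lower too. With library size alone as the scaling, the calls of LAMA5 and SLCO4A1 were lost (-0.41 and -0.3), as was that of GID8 (-0.05), while TCFL5 turned to 0.03. Single libraries decided both of the weakest calls, since GID8 lost its call without PRL3 library B9 (-0.4) or B11 (-0.54), and TCFL5 without B9 (-0.49), B10 (-0.46) or B11 (-0.41). On the other side, GATA5, a cardiac transcription factor gene 68.2 kb downstream of CRMA, was too low to test. It had 4, 9 and 0 counts in EV and 3, 0 and 1 in PRL3.

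At the LINC01291 locus the adjoining lncRNA gene rose with it. LINC01293 (ENSG00000230836, chr2:74940258-74942670, plus strand) begins 1.84 kb after the end of LINC01291, and RefSeq treats it as a synonym of LINC01291 within 1 longer gene, chr2:74908961-74943494. Its raw counts were 302, 199 and 337 in EV and 754, 941 and 789 in PRL3. No PRL3 library overlapped an EV library. It was higher by 1.35 on the log2 scale (SE 0.21, adjusted p = 0.000245 by edgeR's quasi-likelihood test), and the ratio of summed counts was 2.51 (exact 95% interval 2.32 to 2.72, counting error only).

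The ratio between genes within a library needs no scaling between libraries. The ratios that include LINC01291 restate the values for which it was chosen and are given as a description. LINC01291 had 1.99, 2.54 and 2.46 times the counts of LINC01293 in EV libraries B1, B2 and B3, and 4.31, 4.62 and 4.04 times in PRL3 libraries B9, B10 and B11. Relative to HK2, LINC01291 had a ratio of 0.106 ± 0.00315 in EV and 0.453 ± 0.0444 in PRL3 (SD, n = 3 each). LINC01293 relative to HK2 went from 0.0462 ± 0.00754 to 0.106 ± 0.0157 (SD, n = 3 each), for which a two-sided exact permutation test gave p = 0.1, its lower limit at this size. LINC01293 thus had more counts per HK2 count in every PRL3 library than in any EV library.

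HK2 itself, which ends 24.8 kb before LINC01291 on the same strand, had 5504, 4749 and 8077 raw counts in EV and 6639, 10759 and 6825 in PRL3. The groups overlapped, and the log2 fold change of 0.17 (standard error 0.15) did not pass edgeR's quasi-likelihood test (adjusted p = 0.408). The divergent transcript HK2-DT at 84.2 kb had a log2 fold change of -0.33 (edgeR adjusted p = 0.213). HK2 passed the test, at 0.65, with library size alone as the scaling. With all uniquely aligned reads as the scaling, HK2 turned to -0.31.

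POLE4, which encodes an accessory subunit of DNA polymerase epsilon, begins 20.2 kb after LINC01291. It had 1684, 2352 and 2327 raw counts in EV and 922, 2034 and 1225 in PRL3. In normalized counts it was lower, at -0.89 on the log2 scale (SE 0.2, adjusted p = 0.00282 by edgeR's quasi-likelihood test). POLE4 lost the call, at -0.4, with library size alone as the scaling. On the scale of normalized counts per kb of exon, the order in EV was POLE4 (1170 ± 216), HK2 (1110 ± 139), LINC01293 (241 ± 50.7) and LINC01291 (167 ± 18.7; SD, n = 3 each). In PRL3 the order was HK2 (1250 ± 99.4), LINC01291 (798 ± 21.9), POLE4 (629 ± 143) and LINC01293 (611 ± 57.5). POLE4 and HK2 overlapped in EV, POLE4 and LINC01293 overlapped in PRL3, and LINC01291 was above both of the latter in PRL3 library by library.

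The LINC01291 gene holds an antisense gene, ENSG00000236209, that shares 5292 bases of span and 0 bases of exon with it. Its raw counts were 0, 0 and 0 in EV and 0, 1 and 4 in PRL3, too low to test. Unlike at the CRMA locus, RNA from the other strand was thus barely detected at this depth.

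**Figure D5:**
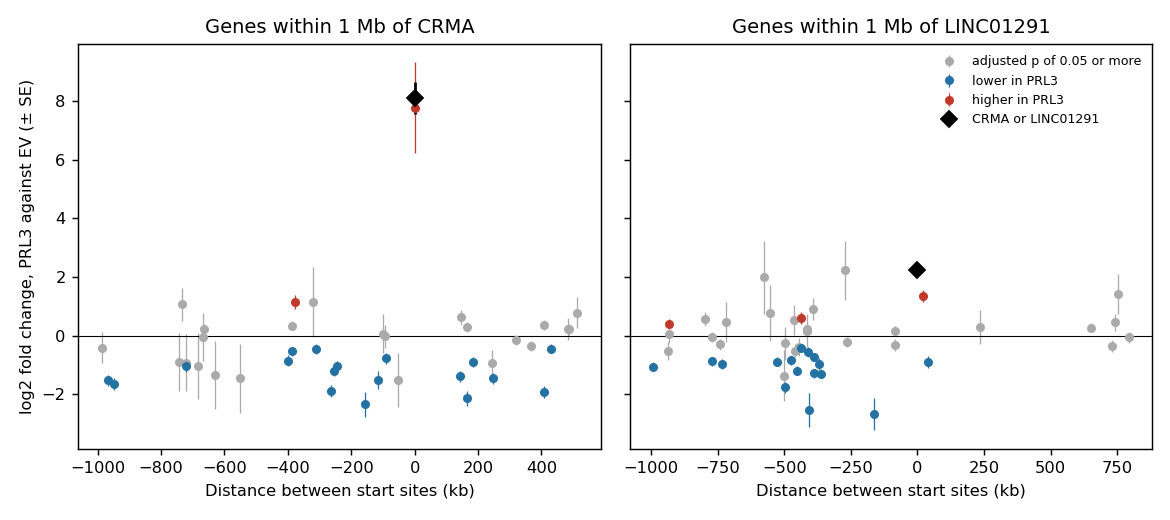
Log2 fold change of PRL3 against EV (bars are standard errors) of the tested genes within 1 Mb of CRMA (left) and LINC01291 (right), against the distance between start sites in kb, colored by call. The called genes of both windows lie mostly below 0 (18 of 20 around CRMA, 16 of 19 around LINC01291). Over all tested genes 5426 were called lower and 4783 higher. The highest called neighbors, MIR1-1HG and LINC01293, stand beside the marked genes, and MIR1-1HG entered the test only through its PRL3 libraries.

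Across the 1 Mb on either side of LINC01291, 73 genes were listed and 46 tested. By edgeR's quasi-likelihood test 3 were higher (6.52%), 16 lower (34.8%) and 27 passed in neither direction. Over all tested genes 20.0% were higher and 22.7% lower. The median log2 fold change in the window was -0.27. The higher genes were LINC01293, CCDC142 (0.59, standard error 0.2, edgeR adjusted p = 0.0264) and TET3, a DNA demethylation enzyme 810 kb away (0.4, standard error 0.15, edgeR adjusted p = 0.0416). The number of higher genes rested on single libraries: it was 5 without EV library B1, 5 without EV library B2, 8 without EV library B3 and 1 without PRL3 library B9. CCDC142 lost its call without EV library B1, PRL3 library B9 or PRL3 library B10. Scaling by library size alone gave 12 higher and 10 lower genes in the window.

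The lower genes around LINC01291 were mostly coding, 15 of the 32 protein-coding genes tested, where 31.6% of all tested protein-coding genes were lower. They included HTRA2, a mitochondrial serine protease (-1.29), the lysyl oxidase family gene LOXL3 (-1.3), DOK1 (-0.96), AUP1 (-0.74), the homeobox gene TLX2 (-2.54), the Polycomb gene PCGF1 (-0.56) and TTC31 (-0.42). With library size alone as the scaling, AUP1 (-0.24) and PCGF1 (-0.07) lost the call and TTC31 turned to 0.07. The call of PCGF1 was also lost without PRL3 library B11 (-0.52), and that of TTC31 without EV library B3 (-0.4), PRL3 library B9 (-0.4) or PRL3 library B11 (-0.36). The ribosomal protein pseudogene RPS28P5 at 163 kb was also lower (-2.67, standard error 0.56, edgeR adjusted p = 0.00201). SEMA4F (-0.23), M1AP (2.22, standard error 1.01), ENSG00000270571 (0.29), EVA1A (0.27) and MRPL19 (-0.35), the remaining nearest tested genes, passed in neither direction by edgeR's quasi-likelihood test (adjusted p = 0.297, 0.0937, 0.718, 0.206 and 0.195).

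Because CRMA lies against a muscle microRNA host gene, markers of cardiac and skeletal muscle were counted. Of 19 listed genes, 11 were tested, 3 were higher and 2 lower in PRL3 by edgeR's quasi-likelihood test, where 20.0% of all tested genes were higher and 22.7% lower, and nothing is read from so few calls. The summed level ranged from 7480 to 9360 normalized counts in EV and from 7290 to 8150 in PRL3. Most of this sum came from NKX2-5, RYR2, GATA4 and HAND2, so it does not describe the listed genes with few counts. The higher genes were MIR1-1HG, which prompted the list, the cardiac actin gene ACTC1 and the transcription factor gene MEF2C. ACTC1 had 0, 0 and 0 raw counts in EV and 13, 16 and 9 in PRL3, and like MIR1-1HG it entered the test only through its PRL3 libraries. TNNI3, the cardiac troponin I gene, did not pass the filter, with 0, 3 and 0 raw counts in EV and 5, 29 and 16 in PRL3, which did not overlap. MEF2C had 495, 280 and 573 in EV and 990, 900 and 790 in PRL3 (0.79 on the log2 scale, standard error 0.24, edgeR adjusted p = 0.0159).

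The remaining muscle genes tested passed in neither direction or were lower, and the others not tested had at most 9 counts in any library. NKX2-5, a cardiac transcription factor gene, had 2281 to 4962 raw counts in EV and 2838 to 5382 in PRL3 (log2 fold change -0.18, edgeR adjusted p = 0.49). GATA4 and RYR2, a cardiac transcription factor gene and the cardiac calcium release channel gene, were lower (-0.54 and -0.4, edgeR adjusted p = 0.025 and 0.038). MYOD1, the skeletal muscle regulator, had 0 counts in every library, and MYH6, the atrial myosin heavy chain, had 0, 0 and 0 in EV and 6, 0 and 5 in PRL3. Of 9 melanocyte markers 5 were tested, and 1 was higher (PAX3, 0.67) and 2 were lower (SOX10, -0.85, and S100B, -1.38). Over all tested genes 20.0% were higher and 22.7% lower, and nothing is read from so few calls. The summed level of the 9 was 24800 to 34100 normalized counts in EV and 15300 to 19000 in PRL3. The 1 call by edgeR among the 5 fibroblast, 4 immune, 2 endothelial and 2 epithelial markers was the collagen gene COL1A2, which was lower (-2.07). With 22.7% of all tested genes lower, nothing is read from this 1 call either. Of the markers of these cell types, in that order, 5, 1, 0 and 1 were tested. Their summed levels in EV and PRL3 were 907 to 1100 and 617 to 685 for fibroblast, 20.9 to 34.1 and 37.1 to 62.2 for immune, 1.82 to 8.42 and 2.98 to 9.65 for endothelial, and 9.63 to 12.2 and 19.3 to 28.9 for epithelial markers. The part of any other cell type in the levels of CRMA and LINC01291 was not tested.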

How the data were processed

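The authors checked reads with FastQC 0.11.3, aligned them to GRCh38 with STAR 2.5.1b and counted reads per gene of Ensembl release 91 with htseq-count (HTSeq 0.6.1, reverse-strand setting). The deposited values are raw counts for 58243 identifiers in each of 6 libraries, without normalization, in which reads outside exons, ambiguous or multiply aligned reads are listed apart and were left out of library sizes. Here, symbols, biotypes and coordinates came from GENCODE release 44 on the same build (57532 identifiers matched), so exon lengths may differ from those counted.

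PRL3 was compared with EV in R 4.3.3 with edgeR 4.0.16 (filterByExpr with a minimum count of 10, TMM, quasi-likelihood test, Benjamini-Hochberg adjustment over 23884 genes, threshold 0.05). Standard errors were derived as the absolute log2 fold change divided by the square root of the F statistic of that test. CRMA and LINC01291 and all lists were chosen with earlier results of these data known. Named neighbors were the tested genes overlapping each gene, the 5 nearest tested on each side, and up to 8 further called genes within 1 Mb. TET3 and the tested coding genes beyond ADRM1 were named after their values were seen. Other genes named were the 5 most similar patterns, the 8 strongest near 0 in EV, PTP4A3, the higher genes next to CRMA and LINC01291 by p, genes too low to test beside them, and markers. Count ratios have exact 95% intervals from the conditional binomial, and a floor of 3 counts over the group was used where EV held 0; both cover counting error only. Sequence windows were aligned with minimap2 2.31-r1302. In simulated data with 2-fold changes the fit recovered 76 of 189 changed genes (40.2%) and called 5 of 22576 unchanged ones. Few genes were changed there, equally up and down, whereas 4783 genes were called higher and 5426 lower in these data. The simulated rates therefore do not carry over to these data. Alternatives were other scalings, DESeq2 1.42.0, limma-voom (limma 3.58.1), other filters, windows and count limits, a threshold of 0.01, and leaving out each library.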

Additional observations from a re-analysis of the deposited data

How the results depend on the processing

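The direction of CRMA and LINC01291 held under every scaling, tool, filter and library left out that gave a value, but the size of the LINC01291 change and the counts of called genes followed the scaling, because the median log2 fold change of all genes went from 0.11 with TMM to 0.29 (upper-quartile scaling), 0.6 (library size alone), -0.36 with all uniquely aligned reads and 0.26 with no low-count filter. The log2 fold change of LINC01291 was 2.44, 2.74 and 1.78 under the first 3 of these, and stood 2.02 to 2.25 above the median of each setting. Leaving out 1 library gave 7.65 to 8.52 for CRMA and 2.18 to 2.31 for LINC01291. At a filter of 10 counts in every library CRMA was not kept. No paired analysis was possible because EV and PRL3 share no replicate number.

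With library size alone, 9514 genes were higher and 3078 lower, 2258 and 34 of them lncRNA genes; 9 genes near CRMA and 12 near LINC01291 were higher, and 10 near LINC01291 lower. With all uniquely aligned reads, 1952 were higher and 8473 lower, with 629 and 264 lncRNA genes, and near LINC01291 1 was higher and 25 lower. With upper-quartile scaling, 7 were higher near CRMA, 6 near LINC01291, and 64 lncRNA genes lower. At an adjusted p of 0.01, 2719 genes were higher, 733 lncRNA genes higher and 44 lower, and 1 higher near LINC01291. Near LINC01291, 8 were higher with no low-count filter and 5 at 10 counts in every library. Windows of 2 Mb held 4 higher and 38 lower genes around CRMA and 7 higher around LINC01291. The lncRNA genes near 0 in EV and present in PRL3 numbered 12 with 0 counts required in EV and 38 on normalized counts.

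Leaving out each library gave 3200 to 5940 higher and 4306 to 5869 lower genes, 832 to 1828 and 49 to 133 lncRNA genes, 2 to 7 and 15 to 19 near CRMA, and 1 to 8 and 14 to 17 near LINC01291. Higher lncRNA genes numbered 886 without PRL3 library B9 and 832 without B11, and lower ones 64, 56 and 49 without B9, B10 and B11. Among named neighbors, log2 fold changes turned with library size alone for ENSG00000167046 (0.45), HK2-DT (0.15), MRPL19 (0.14), SEMA4F (0.25), TCFL5 (0.03) and TTC31 (0.07), and with all uniquely aligned reads for ENSG00000270571 (-0.18), ENSG00000273619 (-0.17), EVA1A (-0.2), HK2 (-0.31) and SLCO4A1-AS2 (-0.39). ENSG00000167046 turned also with upper-quartile scaling (0.13) and at 10 counts in every library (0.01), and ranged from -0.35 to 0.15 with single libraries left out, as SLCO4A1-AS2 did from -0.35 to 0.66. With upper-quartile scaling GID8 (-0.36), PCGF1 (-0.39), TCFL5 (-0.28) and TTC31 (-0.24) lost their calls, as TCFL5 (-0.44) and TTC31 (-0.39) did with no low-count filter. The call of LINC01293 held under each alternative that gave a value. The cause of these shifts beyond the scaling itself was not tested.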

Other observations

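TACR1, the neurokinin 1 receptor gene, lies 108 kb downstream of LINC01291 and did not pass the low-count filter. It had 0, 0 and 0 raw counts in EV and 16, 10 and 17 in PRL3 libraries B9, B10 and B11, at least 12.1-fold higher against a floor of 3 counts over the EV group. It was named after its values were seen and was not tested across genes.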
